A study of Drosophila melanogaster with 18 samples.

Results

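The comparison described here asked what changed in pupal wings of Drosophila melanogaster when RNAi against br was added to RNAi against E93, at 24 h after puparium formation. Its members were fixed by genotype and age: 3 libraries labelled rn-Gal4; UAS-brRNAi; UAS-E93RNAi (called E93RNAi+brRNAi below) were compared with 3 libraries labelled rn-Gal4; UAS-E93RNAi (called E93RNAi), across all genes with values. These are 6 of the 18 poly(A) RNA libraries of the series, which also holds a control with the driver alone and the same 3 genotypes at 44 h. Each library came from at least 40 dissected wings of animals raised at one temperature. Both groups compared carry the rn-Gal4 driver, which follows rotund (rn) in the wing, and the E93 RNAi transgene, so they differ by label in the br transgene alone. RNAi acts where the driver does, so other cells of the wing keep both genes, and the wings of many animals were pooled in each library. The sex of the animals and any neutral transgene that balances the number of UAS transgenes are not given in the labels. A group with the br transgene alone was not analysed here. Control wings (rn-Gal4, 24 h, 3 libraries) are given beside the results as levels.

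Pulses of the steroid hormone ecdysone drive metamorphosis through a cascade of nuclear receptors and transcription factors. The gene br (broad) encodes zinc finger transcription factors that specify the pupal stage, and E93, encoded by Eip93F, is the factor that promotes adult development and restrains br. In the pupal wing the epithelium stops dividing, builds an actin-based hair on each cell, secretes an apical matrix rich in zona pellucida (ZP) domain proteins and then lays down adult cuticle.

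Library totals were between 19892527 and 22940404 counts in these 6 libraries. Levels of a gene are given as CPM, counts scaled by the library total and TMM factors, and fold changes as log2 of E93RNAi+brRNAi over E93RNAi with their SE. Where 3 levels are given for a group they are those of replicates 1, 2 and 3, and a single level is their mean, with its SD (n = 3) where an error follows. A gene is said to have risen or fallen where edgeR's quasi-likelihood test, with Benjamini-Hochberg adjustment over 9672 genes tested, gave an adjusted p under 0.05. By this rule 3989 genes, 41.2% of those tested, changed: 1952 rose (20.2%) and 2037 fell (21.1%). Counts of called genes in the lists below are to be read beside these shares. Most changes were small. The log2 fold change was under 0.5 in size for 2657 of the called genes, and at least 1 (5.96% of genes tested) for 298 that rose (3.08%) and 278 that fell (2.87%). The 3 libraries of one group lay wholly above the 3 of the other for 51.8% of all genes tested. E93RNAi replicate 3 stood apart from its group. The chi-square per degree of freedom between its counts and those of replicates 1 and 2 was 17.6 and 25.5, against 3.97 between replicates 1 and 2 and 4.92 to 6.80 within E93RNAi+brRNAi. Without it 1515 genes rose and 1588 fell.

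**Figure D1:**
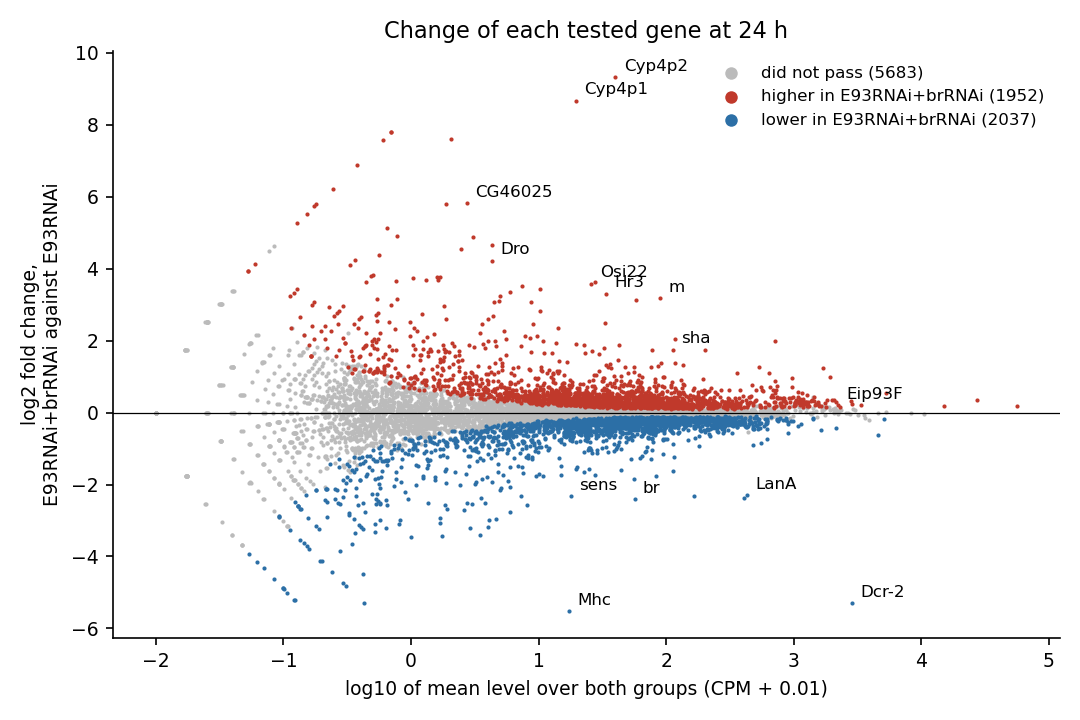
Each point is a gene tested at 24 h, with the log10 mean level over both groups (CPM + 0.01) on the x axis and the log2 fold change of E93RNAi+brRNAi against E93RNAi on the y axis. Red points rose (1952), blue points fell (2037), and grey points did not pass. Cyp4p2 and Cyp4p1 stand at the top, and Mhc and Dcr-2 at the bottom.

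The added target br (listed by its former ID FBgn0000210; dm6 chromosome X, 1575132 to 1664869) fell. It was at 96.6, 83.6 and 105 CPM in E93RNAi replicates 1, 2 and 3 and at 22.5, 16.6 and 14.7 CPM in E93RNAi+brRNAi. Every E93RNAi+brRNAi library was far below every E93RNAi library (log2 fold change -2.40 ± 0.13, adjusted p = 1.31e-11 by edgeR). Control wings held 12.8, 14.9 and 16.7 CPM of br, a range that overlaps that of E93RNAi+brRNAi.

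The target both groups share, Eip93F (chromosome 3R, 21949114 to 22014539), was at 2043, 1886 and 2269.9 CPM in E93RNAi and 2359, 2414 and 2334 CPM in E93RNAi+brRNAi. The latter 3 lay slightly above the former (log2 fold change 0.20 ± 0.06, edgeR adjusted p = 0.0133), and the call was lost without E93RNAi replicate 2 (0.13) or E93RNAi+brRNAi replicate 2 (0.17). Control wings were at 2018, 2115 and 2098 CPM. E93RNAi libraries lay on both sides of that range and E93RNAi+brRNAi libraries above it, so the Eip93F transcript level does not check the label of the E93 transgene. The driver gene rn was at 129.9, 139.8 and 151 CPM in E93RNAi and 120.4, 116 and 109 CPM in E93RNAi+brRNAi (log2 fold change -0.28 ± 0.05, edgeR adjusted p = 0.000285).

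A second difference between the groups is not in their labels. Dcr-2 (chromosome 2R, 17574979 to 17581525), which encodes the Dicer enzyme that makes small interfering RNAs, was at 5316, 5293 and 6039.5 CPM in E93RNAi and at 146, 147 and 128 CPM in E93RNAi+brRNAi. Control wings were at 229.7, 219.9 and 262 CPM, so that at 24 h Dcr-2 was high in the E93RNAi libraries alone (log2 fold change -5.30 ± 0.13, edgeR adjusted p = 3.37e-17). UAS-Dcr-2 transgenes are often added to strengthen RNAi, but none is named in the labels of any of the 18 libraries. What follows therefore compares groups that differ in both br and Dcr-2, and the effects of these differences cannot be told apart. Other genes of RNA interference and the piRNA pathway were measured too: of 23 tested, 1 rose and 7 fell, Dcr-2 included. Among them krimp, a piRNA pathway gene of the germ line, fell from 7.25 to 0.93 CPM (log2 fold change -2.97 ± 0.25), with control at 0.903 CPM. SoYb, which acts in the same pathway, fell from 29.5 to 10.3 CPM (log2 fold change -1.52 ± 0.13), with control at 10.1 CPM. AGO1, which acts with microRNAs, did not pass (239.9 and 205 CPM).

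Before the gene groups, a pattern with gene length has to be set beside them. Over genes with a mean of at least 5 CPM over both groups, split by length into 5 bins of 1397 to 1401 genes, the median log2 fold change went from 0.25 in the shortest bin through 0.07, -0.03 and -0.11 to -0.19 in the longest. In the shortest bin 53.9% of genes rose and 3.14% fell. In the longest bin 6.004% rose and 52.9% fell. Of these 6 libraries E93RNAi replicate 3 had the steepest course, from -0.31 in the shortest to 0.31 in the longest bin (median log2 level against the mean of all 18 libraries). Without this library the medians still ran from 0.16 to -0.14. Small changes shared by many short or many long genes are therefore given both as fitted and with the length trend of each library removed, an alternative added after the data were seen. The cause of the trend was not tested.

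**Figure D2:**
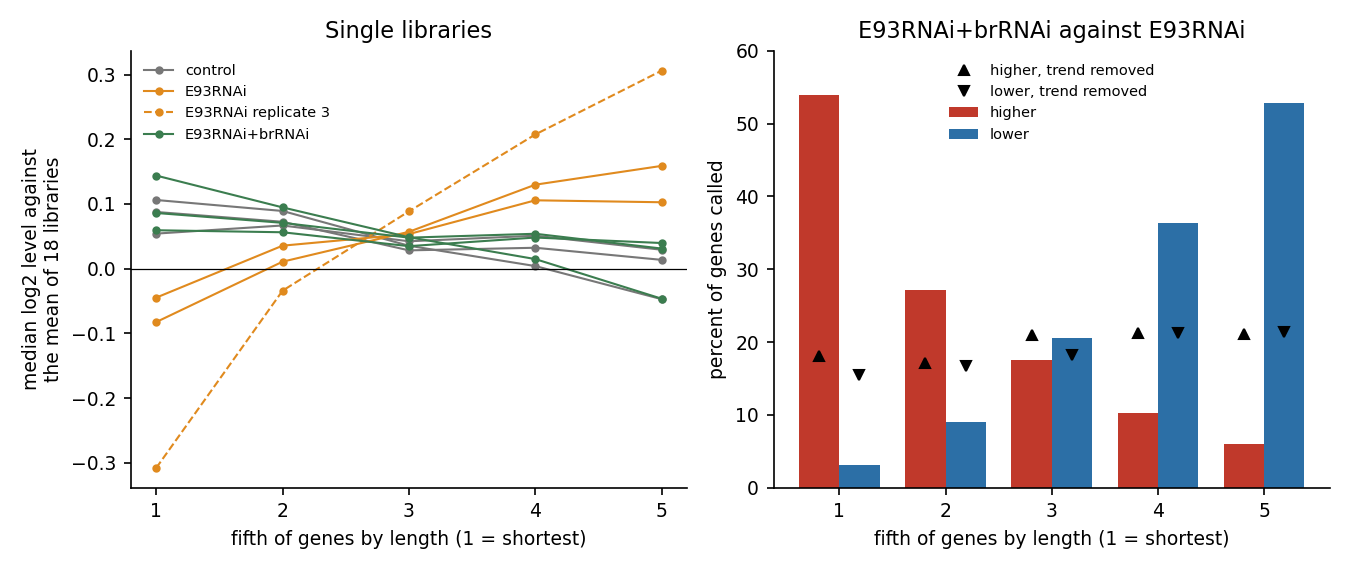
The left panel shows, for each 24 h library (line), the median log2 level against the mean of 18 libraries in each of 5 bins of genes by length, with E93RNAi replicate 3 dashed. The right panel shows the percent of genes that rose (red) or fell (blue) in E93RNAi+brRNAi against E93RNAi in each bin, with triangles for the same shares once the trend was removed; the shortest bin has 53.9% higher and the longest 52.9% lower.

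Among nuclear receptors, the hormone-responsive receptors Hr3 and Eip78C rose, and most others did not pass. Of 14 tested, 3 rose and 1 fell, with a median log2 fold change of -0.02 against -0.01 over all genes. Hr3 (chromosome 2R, 10203995 to 10237348), an ecdysone-induced receptor that acts between early and late genes of the cascade, was at 5.85, 6.29 and 6.57 CPM in E93RNAi and 52.6, 86.1 and 46.9 CPM in E93RNAi+brRNAi. All 3 libraries with the br transgene were high, replicate 2 most of all, and the groups did not overlap (log2 fold change 3.31 ± 0.19, edgeR adjusted p = 4.62e-11). Control wings held 1.497, 1.76 and 1.08 CPM at 24 h, below both groups. Eip78C, another ecdysone-induced receptor, was at 76.4, 76.95 and 86.4 CPM in E93RNAi and 126, 149 and 158 CPM in E93RNAi+brRNAi (log2 fold change 0.85 ± 0.09), again with control lower, at 46.1, 34.98 and 36.9 CPM. The ecdysone receptor gene EcR was at 373 ± 29.4 and 322 ± 19.6 CPM (log2 fold change -0.21 ± 0.07, edgeR adjusted p = 0.025), a call that was lost with the length trend removed (-0.04) and without replicate 3 of either group. Eip75B (286 ± 26.1 and 269 ± 9.32 CPM) and Hr39 (224 and 217 CPM) did not pass; the 95% interval for Eip75B was -0.21 to 0.03.

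Of 26 tested genes of the ecdysone response and of developmental timing other than nuclear receptors, br and Eip93F included, 3 rose and 11 fell (median log2 fold change -0.13), and 5 of the falls and 1 of the rises were of at least 1. With the length trend removed, 6 rose and 10 fell. The rise of that size was ImpL1, an ecdysone-inducible gene of imaginal discs, at 52.4, 48.2 and 50.1 CPM in E93RNAi and 111, 129.6 and 126 CPM in E93RNAi+brRNAi (log2 fold change 1.28 ± 0.07, edgeR adjusted p = 4.18e-11). Its level in E93RNAi was near that of control wings, at 57.2, 51.4 and 55.97 CPM, and all 3 E93RNAi+brRNAi libraries lay above both. Cyp18a1, the enzyme that inactivates ecdysteroids, fell from 19.3, 20.5 and 21.2 to 9.81, 8.05 and 7.55 CPM (log2 fold change -1.26 ± 0.09). Ldh, lactate dehydrogenase, fell from 11.1 to 4.76 CPM (log2 fold change -1.22 ± 0.17). The RNA-binding timing factor lin-28 was low throughout and fell from 0.944 to 0.332 CPM (log2 fold change -1.46 ± 0.33), with control at 0.0496 CPM. br, given above, was another of the falls of at least 1. The fall of Eip63F-1 lost its call without E93RNAi replicate 1 or 2, or without any 1 of the E93RNAi+brRNAi replicates. Syp, an RNA-binding protein of developmental timing, was at 326 and 287 CPM and the zinc finger gene crol at 644 and 579 CPM, and neither passed.

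The Osiris genes, a family of membrane proteins made by cells that build cuticle, had the highest median change of the 46 gene lists examined. Of 22 members matched, 18 were tested: 10 rose, 9 of them by at least 1, 2 fell and 6 did not pass. Their median log2 fold change was 1.93, against -0.01 over all genes. The counts hardly moved with the length trend removed (9 rose and 2 fell). There were 8 rises without E93RNAi replicate 1, without its replicate 2 or without E93RNAi+brRNAi replicate 2. Osi1 was among the members whose call was lost with the trend removed and without any 1 of the E93RNAi replicates. Osi9 (chromosome 3R, 6260211 to 6262105) was at 11.8, 12.1 and 11.8 CPM in E93RNAi and 91.5, 122 and 100.4 CPM in E93RNAi+brRNAi (log2 fold change 3.14 ± 0.12, edgeR adjusted p = 2.43e-13). Control wings lay between the groups, at 23.9, 20.8 and 21.3 CPM. Osi22 was at 3.66, 3.85 and 4.503 CPM in E93RNAi and 40.9, 54.5 and 48.6 CPM in E93RNAi+brRNAi (log2 fold change 3.58 ± 0.18), and control held 5.78, 2.67 and 3.8 CPM, about the level of E93RNAi. Osi7 rose from 2.76 to 15.4 CPM (log2 fold change 2.47 ± 0.22) and Osi17 from 3.64 to 15.8 CPM (log2 fold change 2.11 ± 0.16). The 2 members that fell, named here after their values were seen, were Osi14, from 16.1 to 8.16 CPM (log2 fold change -0.97 ± 0.12), and Osi2, which was at 1.93 and 0.539 CPM. Osi8, at 1.53 and 1.22 CPM, did not pass.

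Of 13 tested genes for ZP domain proteins of the apical matrix 9 rose and 4 did not pass, with a median log2 fold change of 0.42. With the length trend removed 11 rose. No fall passed by edgeR, where 1 had an unadjusted p under 0.05, and DESeq2 called 1. The gene m (miniature, chromosome X, 11754273 to 11769508), a ZP protein needed to flatten wing cells, was at 18.7, 15.96 and 19.2 CPM in E93RNAi and 145, 193 and 149 CPM in E93RNAi+brRNAi. The groups were far apart, with control at 19.9, 10.5 and 15.9 CPM near E93RNAi (log2 fold change 3.18 ± 0.14, edgeR adjusted p = 1.27e-12). Others were abundant and rose less. The ZP gene mey went from 220.2, 221 and 239 to 439, 534 and 494 CPM (log2 fold change 1.11 ± 0.06), and its relative neo from 558 to 934 CPM (log2 fold change 0.74 ± 0.06). Control wings held 111 CPM of mey and 504 CPM of neo. The giant matrix protein dpy (dumpy), which anchors the wing to the cuticle, did not pass, at 435 ± 52.02 and 441 ± 40.3 CPM with a 95% interval of the log2 fold change of -0.29 to 0.33 (0.61 and past the threshold with the length trend removed), and neither did pio (859 and 897 CPM) or pot (766 and 725 CPM).

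**Figure D3:**
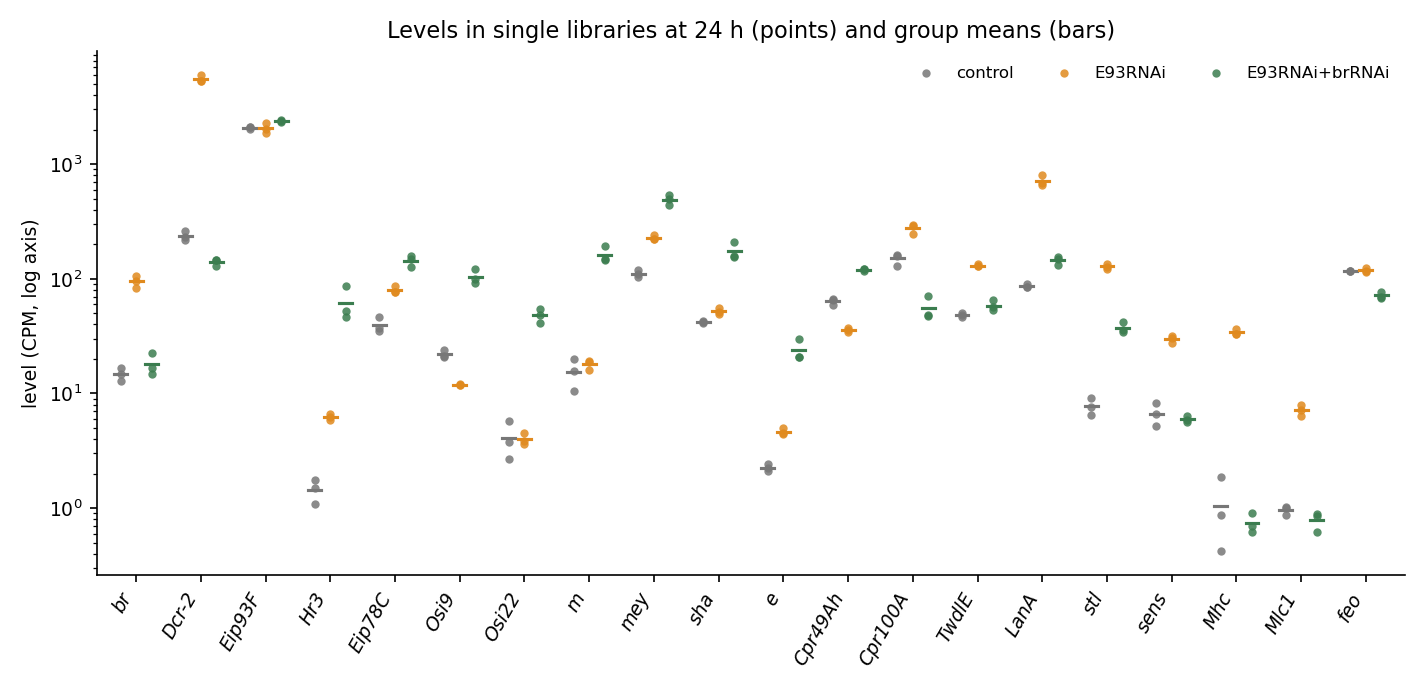
Levels of 20 genes in single 24 h libraries (points; CPM on a log axis) with group means (bars) for control (grey), E93RNAi (orange) and E93RNAi+brRNAi (green), n = 3 each. br, Dcr-2, LanA, Mhc, Mlc1, sens and stl are lower in E93RNAi+brRNAi than in E93RNAi, and Hr3, Osi9, Osi22, m, mey, sha and e are higher.

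Cuticle genes moved in both directions. Of 94 genes for cuticle proteins with the chitin-binding RR motif, 53 were tested: 19 rose, 12 by at least 1, 7 fell, 3 by at least 1, and 27 did not pass (median log2 fold change 0.27). With the length trend removed 14 rose and 8 fell. Cpr49Ah was at 35.5, 37.1 and 34.5 CPM in E93RNAi and 117, 122 and 122 CPM in E93RNAi+brRNAi (log2 fold change 1.75 ± 0.11, edgeR adjusted p = 1.92e-10), with control between them at 66.8, 65.1 and 58.8 CPM. Cpr73D rose from 4.02, 4.23 and 4.78 to 14.4, 22.03 and 15.5 CPM (log2 fold change 1.99 ± 0.14) and Cpr49Ae from 7.78 to 21.2 CPM (log2 fold change 1.44 ± 0.11). Against these, Cpr100A (chromosome 3R, 30867521 to 30869184) fell from 297, 245 and 289.9 to 70.2, 48.7 and 46.99 CPM (log2 fold change -2.32 ± 0.13), to levels below the 129.9, 162 and 159 CPM of control. The most abundant member, Cpr72Ea, did not pass, at 5303 ± 242 and 5371 ± 469 CPM (log2 fold change 0.02 ± 0.09); control held 9475 CPM. Of 5 Tweedle genes tested, a second family of cuticle proteins, none rose and 2 fell: TwdlE from 133, 129 and 129.6 to 65.3, 56.5 and 53.02 CPM (log2 fold change -1.16 ± 0.07) and TwdlT from 12.1 to 2.399 CPM (log2 fold change -2.33 ± 0.20). DESeq2 called 3 falls and no rise in this list, and by edgeR 1 rise had an unadjusted p under 0.05.

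Genes that make and order chitin were split evenly as fitted, with 8 of 31 tested higher and 8 lower (5 lower without E93RNAi replicate 3). With the length trend removed 8 rose and 5 fell. The chitinase gene Cht5 rose from 224 ± 7.504 to 304 ± 11.1 CPM (log2 fold change 0.44 ± 0.08), while control wings were at 701 CPM. Gasp, a chitin-binding protein, rose from 34.6 to 59.6 CPM (log2 fold change 0.78 ± 0.09), and obst-A, another, fell from 261 to 172 CPM (log2 fold change -0.60 ± 0.06). expansion (exp), which is needed for chitin deposition in trachea, fell from 32.9 to 15.9 CPM (log2 fold change -1.04 ± 0.10).

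Of 24 genes of pigmentation and tanning tested, 7 rose and 4 fell, a called share of 45.8%, near the 41.2% of all genes tested. The pair of enzymes that add and remove beta-alanine on dopamine moved in opposite directions. The gene e (ebony), which joins beta-alanine to dopamine, was at 4.43, 4.53 and 5.01 CPM in E93RNAi and 20.9, 29.9 and 20.8 CPM in E93RNAi+brRNAi (log2 fold change 2.35 ± 0.12, edgeR adjusted p = 6.34e-12). The gene t (tan), whose product reverses that step, was at 55.1, 50.3 and 52.8 CPM in E93RNAi and 26.4, 24.4 and 24.5 CPM in E93RNAi+brRNAi (log2 fold change -1.07 ± 0.06, edgeR adjusted p = 8.38e-12). The groups did not overlap for either gene, and control wings were below both groups for both, at 2.25 CPM of e and 9.78 CPM of t. Pu (Punch), the enzyme that starts the synthesis of the cofactor of tyrosine hydroxylase, rose from 2.93 to 12.8 CPM (log2 fold change 2.13 ± 0.11). Hn (Henna), phenylalanine hydroxylase, fell from 9.57 to 2.28 CPM (log2 fold change -2.06 ± 0.15).

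Of 22 genes for the actin hairs and bristles of the wing, 12 rose and 4 fell (14 and 1 with the length trend removed), with a median log2 fold change of 0.12. The gene sha (shavenoid), which is needed for hair outgrowth, was at 51.2, 48.9 and 56.2 CPM in E93RNAi and 156, 209 and 159 CPM in E93RNAi+brRNAi (log2 fold change 1.74 ± 0.10, edgeR adjusted p = 2.63e-11), with control at 42.6, 41.7 and 40.96 CPM. All libraries with the br transgene were above all others. mwh (multiple wing hairs), which limits hairs to one site per cell, rose from 37.2 to 65.8 CPM (log2 fold change 0.82 ± 0.07), and the villin-like actin regulator qua (quail) from 35.1 to 53.02 CPM (log2 fold change 0.60 ± 0.06). jv (javelin), a bristle gene, fell from 33.02 to 16.7 CPM (log2 fold change -0.98 ± 0.08), and control was at 8.41 CPM. Planar polarity genes, which orient the hairs, changed little: as fitted 3 of 14 rose and 3 fell, none by 1 or more. With the length trend removed 7 rose and 1 fell (median log2 fold change 0.10). Vang was at 278 and 262 CPM and pk at 262 and 264 CPM, and neither passed.

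The basement membrane list was marked by LanA (chromosome 3L, 6203831 to 6218022), a laminin alpha chain. LanA was at 688, 662 and 798 CPM in E93RNAi and at 148, 155 and 133 CPM in E93RNAi+brRNAi, and control wings held 84.6, 84.2 and 89.99 CPM. Its level in E93RNAi+brRNAi was thus between those of control and E93RNAi (log2 fold change -2.30 ± 0.09, edgeR adjusted p = 2.43e-13). wb (wing blister), the other laminin alpha chain, chosen for this contrast after its values were seen, was at 443 ± 52.7 and 563 ± 36.6 CPM (log2 fold change 0.35 ± 0.09, edgeR adjusted p = 0.0046, and 0.66 with the length trend removed). The shared beta chain LanB1 was at 565 and 535 CPM and the gamma chain LanB2 at 489 and 504 CPM, and neither passed. On the length-scaled cRPKM of the deposited tables, on which genes can be compared with each other, LanA stood at 66.8 and wb at 42.6 in E93RNAi, and at 13.2 and 52.9 in E93RNAi+brRNAi. Of the 13 genes of the list 3 rose and 6 fell (6 and 5 with the length trend removed), among them SPARC, a collagen-binding protein, which rose from 41.7 to 77.8 CPM (log2 fold change 0.90 ± 0.09), and nidogen (Ndg), which fell from 11.5 to 5.101 CPM (log2 fold change -1.18 ± 0.12).

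All 11 matrix proteases and their regulators tested passed, 6 higher and 5 lower (3 lower without E93RNAi+brRNAi replicate 3). The largest change was in stl (stall), a secreted ADAMTS-like metalloprotease, at 126, 123 and 136 CPM in E93RNAi and 36.1, 41.8 and 34.7 CPM in E93RNAi+brRNAi, with control far lower at 7.59, 6.55 and 9.15 CPM (log2 fold change -1.77 ± 0.07, edgeR adjusted p = 2.43e-13). Sb (Stubble), a membrane serine protease needed for the shaping of legs and wings, rose from 56.1 to 107 CPM (log2 fold change 0.93 ± 0.08). The other changes were smaller than those of these 2 genes.

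Most measured genes of cell division fell. Of 42 genes of mitosis and cytokinesis 33 fell and 2 rose, with a median log2 fold change of -0.39. Of 34 genes of DNA replication 19 fell and 1 rose, with a median of -0.30. With the length trend removed the falls numbered 33 and 20, so that these counts hardly moved with it. They did move with single libraries. Falls of replication genes numbered 23 without E93RNAi+brRNAi replicate 1 and 14 without its replicate 2. Falls of mitosis genes numbered 35 without E93RNAi+brRNAi replicate 1 and 28 without its replicate 3. The changes were moderate. feo (fascetto), a microtubule bundler of the cytokinetic spindle, was at 118, 114 and 123 CPM in E93RNAi and 76.6, 68.6 and 69.9 CPM in E93RNAi+brRNAi (log2 fold change -0.72 ± 0.06, edgeR adjusted p = 4.9e-09). Control was at 118, 117 and 118 CPM, as high as E93RNAi. The citron kinase sti (sticky) fell from 208 to 127 CPM (log2 fold change -0.71 ± 0.08) and the mitotic kinesin Klp61F from 149 to 102 CPM (log2 fold change -0.55 ± 0.06). CycE, the cyclin of S phase entry, fell from 62.6, 56.1 and 71.5 to 42.5, 38.4 and 35.5 CPM (log2 fold change -0.71 ± 0.08), and the replicative helicase subunit Mcm6 from 96.1 to 66.4 CPM (log2 fold change -0.53 ± 0.07). PCNA, the sliding clamp, did not pass (123 ± 9.69 and 120.3 ± 17.9 CPM), nor did Cdk1 (92.7 ± 13.2 and 103 ± 3.86 CPM). In bulk wings, fewer cells of a kind and less RNA per cell cannot be told apart.

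**Figure D4:**
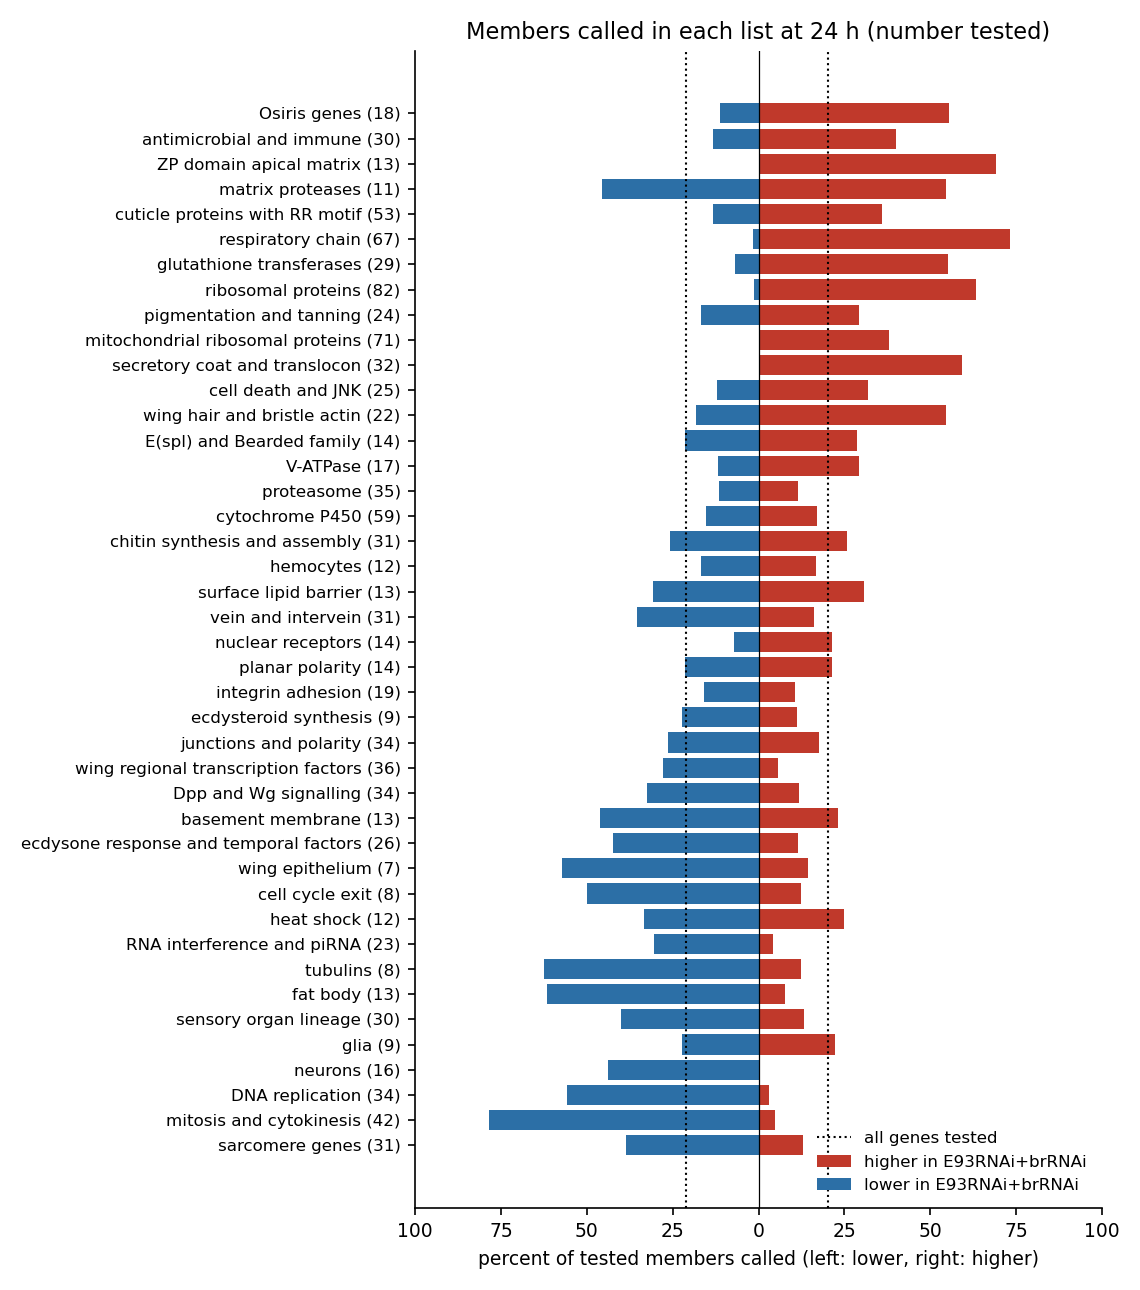
For each list with at least 7 tested members (number in brackets), bars show the percent of members that rose (red, right) or fell (blue, left) in E93RNAi+brRNAi against E93RNAi at 24 h, ordered by median log2 fold change; dotted lines mark the shares over all genes tested, 20.2% higher and 21.1% lower. Osiris genes (10 of 18 higher) stand at the top, mitosis genes (33 of 42 lower) near the bottom, and the ribosomal protein and respiratory chain bars are those before removal of the length trend.

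Genes of patterning changed by small amounts, as fitted more often downward. With the length trend removed, falls no longer clearly outnumbered rises. In the regional, Dpp and Wg, and vein lists 33.3%, 44.1% and 51.6% of genes were called, against 41.2% of all genes tested. Of 36 wing regional transcription factors, 2 rose and 10 fell (6 and 7 with the length trend removed, and 6 falls without E93RNAi replicate 3). The homeobox factor dve was the only one to change by at least 1, from 92.3, 86.5 and 105 CPM in E93RNAi to 48.3, 48.04 and 40.2 CPM in E93RNAi+brRNAi (log2 fold change -1.06 ± 0.08), and control was at 52.1, 55.2 and 53.8 CPM. Of 34 genes of Dpp and Wg signalling 4 rose and 11 fell (11 and 5 with the length trend removed). The ligand Wnt6 fell from 42.6 to 24.9 CPM (log2 fold change -0.78 ± 0.06), with control at 24.7 CPM, and the ligand Wnt4 rose from 67.2 to 91.996 CPM (log2 fold change 0.45 ± 0.05). Among 31 genes that place veins and intervein tissue, 5 rose and 11 fell (8 and 7 with the trend removed): the intervein repressor net fell (log2 fold change -0.53 ± 0.06), and sog, an antagonist of BMP ligands, rose (log2 fold change 0.48 ± 0.06).

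In the sensory organ lineage, 4 of 30 genes rose and 12 fell (8 with the length trend removed). sens (senseless, chromosome 3L, 13396228 to 13401125), the zinc finger factor of sensory organ precursors, was at 27.4, 30.3 and 31.8 CPM in E93RNAi and 6.35, 5.87 and 5.67 CPM in E93RNAi+brRNAi (log2 fold change -2.32 ± 0.16, edgeR adjusted p = 4.48e-10). The libraries with the br transgene were within the range of control (6.61, 5.24 and 8.21 CPM) and did not overlap with E93RNAi. pros (prospero), a factor of sheath cells and neurons, fell from 71.7 to 47.4 CPM (log2 fold change -0.60 ± 0.07), a call lost with the length trend removed (-0.16). nompA, a ZP protein of the sensory dendrite cap, rose from 80.8 to 107 CPM (log2 fold change 0.40 ± 0.06).

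Several sarcomere genes were lower in E93RNAi+brRNAi than in E93RNAi. Mhc (muscle myosin heavy chain, chromosome 2L, 16766566 to 16788766) was at 32.8, 33.1 and 36.5 CPM in E93RNAi and 0.701, 0.9 and 0.625 CPM in E93RNAi+brRNAi (log2 fold change -5.52 ± 0.27, edgeR adjusted p = 3.44e-12). Control wings held 0.878, 1.86 and 0.422 CPM, a range that encloses the E93RNAi+brRNAi libraries. The myosin light chain Mlc1 fell from 7.16 to 0.788 CPM (log2 fold change -3.18 ± 0.25), tropomyosin Tm2 from 5.18 to 0.557 CPM (log2 fold change -3.20 ± 0.25) and troponin T (up) from 10.4 to 1.56 CPM (log2 fold change -2.76 ± 0.23). Of 31 sarcomere genes tested 12 fell, 7 by at least 1, and 4 rose. The 2 rises of at least 1 were in genes with under 1 CPM in both groups, such as Mp20 (0.0143 and 0.221 CPM). Tm1, which other cells also express, did not pass (561 and 589.97 CPM).

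Marker lists of other cell types were examined because dissected wings can hold more than epithelium. Counts of called markers are given as fitted only, without removal of the length trend. Of 10 tested muscle markers 9 fell, against 21.1% of all genes tested. They include Mhc, Mlc1, Tm2 and up, named above for their large falls, and in the longer sarcomere list 12 of 31 fell and 4 rose. The muscle markers summed to 384 to 424 CPM in E93RNAi, 239 to 265 CPM in E93RNAi+brRNAi and 322 to 354 CPM in control. Of 5 tested fat body markers 4 fell (summed level 569 to 601 CPM and 441 to 466 CPM). The summed level of neuron markers was 159.9 to 201 CPM in E93RNAi and 110.2 to 134 CPM in E93RNAi+brRNAi, and 2 of 6 fell. Hemocyte markers summed to 67.3 to 72.3 and 68.5 to 72.5 CPM, with 1 of 5 lower, and glia markers to 25.7 to 30.5 and 33.7 to 38.04 CPM, with 2 of 4 higher. The longer glia list went the other way: of 9 genes 2 rose and 2 fell, the median log2 fold change was -0.28, and the summed level was 130.2, 129.9 and 143 CPM in E93RNAi and 123, 117 and 116 CPM in E93RNAi+brRNAi. Of the wing epithelium markers, 1 of 7 rose and 4 fell, and they summed to 2266 to 2584 CPM and 2198 to 2308 CPM, so the labelled tissue was present in all libraries. No marker with values was at 0 in both groups. Among genes of the longer lists for those tissues, the larval serum protein gene Lsp1beta of the fat body fell from 54.6 to 30.8 CPM (log2 fold change -0.83 ± 0.11) and futsch, a microtubule protein of neurons, from 91.4 to 56.01 CPM (log2 fold change -0.71 ± 0.13). The part of muscle, fat body or neuron RNA in the falls above was not tested.

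Many transcripts of protein synthesis and energy supply rose by small amounts, and most of these calls were lost with the length trend removed. Of 82 ribosomal protein genes 52 rose and 1 fell, with a median log2 fold change of 0.24, but with the length trend removed 8 rose and 27 fell. Without E93RNAi replicate 3, or without E93RNAi+brRNAi replicate 3, 31 rose and 1 fell. RpL30 was at 668, 623 and 435 CPM in E93RNAi and 872, 869 and 922 CPM in E93RNAi+brRNAi, with E93RNAi replicate 3 the lowest (log2 fold change 0.63 ± 0.10). Counts on ribosomal protein genes made up 10.1%, 10.5% and 7.92% of E93RNAi libraries and 10.8%, 10.6% and 11.3% of E93RNAi+brRNAi libraries. Of 67 respiratory chain genes 49 rose and 1 fell (14 and 4 with the length trend removed, and 32 rises without E93RNAi replicate 3). Of 71 mitochondrial ribosomal genes 27 rose and none fell by edgeR, at an unadjusted p under 0.05 or by DESeq2 (4 and 7 with the trend removed, and 13 rises without replicate 3 of either group). The secretory list, with coat proteins and the translocon of the endoplasmic reticulum, did not lose its rises in this way. Of its 32 genes 19 rose and none fell by edgeR (2 at an unadjusted p under 0.05 and 2 by DESeq2), and with the trend removed 23 rose. Sec61gamma, a translocon subunit, was at 87.4, 88.4 and 69.7 CPM in E93RNAi and 131, 136 and 138 CPM in E93RNAi+brRNAi (log2 fold change 0.72 ± 0.07, edgeR adjusted p = 7.76e-08, and 0.41 with the trend removed).

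The largest rises were in cytochrome P450 genes that lie side by side. Cyp4p2 was at 0.0457, 0.128 and 0.184 CPM in E93RNAi and 71.7, 84.5 and 83.3 CPM in E93RNAi+brRNAi (log2 fold change 9.31 ± 0.20, edgeR adjusted p = 6.51e-18), and control was at 127, 133 and 125 CPM. Cyp4p1 was at 0.0457, 0.0428 and 0.184 CPM and 36.3, 38.1 and 42.4 CPM (log2 fold change 8.67 ± 0.20), with control at 54.2, 57.3 and 55.5 CPM. E93RNAi libraries were thus nearly without these transcripts, while control and E93RNAi+brRNAi libraries held them. What sets the E93RNAi libraries apart here was not tested. Cyp4p3 had no count in the 3 E93RNAi libraries together and 81 counts in E93RNAi+brRNAi, at least 26.3-fold higher against a floor of 3 counts over the group. With hig, which encodes a synaptic matrix protein, they form a run of 4 neighbouring genes on chromosome 2R (9227785 to 9247249), and the Cyp4p genes lie within the span of hig. Because the 3 Cyp4p genes are paralogs, reads of one may have been counted for another. Reads of the Cyp4p genes may also have been counted for hig, since how strand was counted is not given. Of all 59 P450 genes tested 10 rose and 9 fell, a called share of 32.2%, below the 41.2% of all genes tested. Cyp4g1, which makes surface hydrocarbons in oenocytes, rose from 0.228, 0.513 and 0.23 to 12.9, 7.06 and 4.96 CPM (log2 fold change 4.65 ± 0.42), with control at 2.32, 4.89 and 3.61 CPM.

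Of 29 glutathione transferase genes, which detoxify, 16 rose and 2 fell (11 and 4 with the length trend removed). GstT4 went from 50.8, 49.1 and 50.04 to 81.3, 77.4 and 82.1 CPM (log2 fold change 0.68 ± 0.06), toward the 105, 112 and 105 CPM of control, and GstD1 from 418 to 688 CPM (log2 fold change 0.72 ± 0.08). Of 30 immune genes 12 rose, 9 by at least 1, and 4 fell. The antimicrobial peptide gene Dro (drosocin) was at 0.32, 0.471 and 0.505 CPM in E93RNAi and 7.91, 6.87 and 9.74 CPM in E93RNAi+brRNAi (log2 fold change 4.22 ± 0.25), and CecC, a cecropin, rose from 1.22 to 5.69 CPM (log2 fold change 2.22 ± 0.20). These levels were low, and control held 0.684 CPM of Dro and 5.09 CPM of CecC. In the list of cell death and JNK signalling 8 of 25 rose (5 without E93RNAi+brRNAi replicate 3) and 3 fell. That called share of 44% is near the 41.2% of all genes tested. Its cytokine gene upd2 rose from 6.58 to 14.6 CPM (log2 fold change 1.15 ± 0.11). The chaperone Hsp83 fell from 1881, 1910.5 and 1919.8 to 1416, 1329.8 and 1358 CPM (log2 fold change -0.48 ± 0.04).

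In several other lists every called change was under 1 on the log2 scale, except in ecdysteroid synthesis. Their called shares ran from 22.9% (proteasome) to 62.5% (cell cycle exit), against 41.2% of all genes tested. Of 34 genes of cell junctions and polarity 6 rose and 9 fell (11 and 2 with the length trend removed, 2 falls without E93RNAi replicate 3 and 3 without E93RNAi+brRNAi replicate 3), among them crb (crumbs), an apical determinant, which fell from 494 to 381 CPM (log2 fold change -0.38 ± 0.08). Of 19 genes of integrin adhesion 2 rose and 3 fell (4 and 1 with the trend removed), and mys, the main beta integrin, was at 307 and 324 CPM and did not pass. Of 14 genes of the E(spl) and Bearded family, targets of Notch, 4 rose and 3 fell (1 and 7 with the trend removed). Of 8 genes of cell cycle exit 1 rose and 4 fell (1 and 2 with the trend removed): fzr (fizzy-related), which ends mitotic cycles, rose from 61.2 to 78.2 CPM (log2 fold change 0.35 ± 0.06). Of 35 proteasome genes 4 rose and 4 fell, and 16 fell with the trend removed, and of 17 V-ATPase genes 5 rose and 2 fell. Among 9 genes of ecdysteroid synthesis 1 rose and 2 fell, both falls by at least 1 (lowest log2 fold change -2.51, list median -0.06). The fall of spok lost its call without replicate 1 or replicate 3 of either group. The rise was that of shd (shade), the enzyme that makes 20-hydroxyecdysone, from 9.26 to 15.1 CPM (log2 fold change 0.70 ± 0.10).

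Genes with at most 3 counts over the E93RNAi libraries and at least 1 CPM in E93RNAi+brRNAi numbered 7, and there was none of the reverse kind. Besides Cyp4p3 they include the RR cuticle gene Cpr47Ea, with no count in E93RNAi and 1.69, 1.14 and 1.295 CPM in E93RNAi+brRNAi, at least 30.7-fold higher against the floor. Control wings held 0.0512 CPM of it on average. CG17298 also had no count in E93RNAi, and was at least 30.9-fold higher. The other genes were the immune peptide gene BomS1 and the unnamed genes CG15021, CG6660 and CG43133.

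Runs of 3 or more neighbouring tested genes that all changed in one direction by at least 1 numbered 7. Beside the hig and Cyp4p run, Osi9, Osi11 and Osi12 rose together on chromosome 3R (6260211 to 6282495; log2 fold changes 1.28 to 3.77). Cpr100A fell with CG15545 and CG15546 (chromosome 3R, 30867521 to 30876186; -2.32 to -1.47). The run of CG7214, CG7203 and CG46025 (chromosome 2L, 7743682 to 7765915) rests on CG7203, whose call was lost with the length trend removed and in 5 of the 6 fits without 1 library. That of CG18449, CG2127 and CG8701 rests on CG8701, whose call was lost without E93RNAi replicate 2 or E93RNAi+brRNAi replicate 3. Hn fell with the circadian factor Clk and with CG7409 (chromosome 3L, 7754409 to 7775603; -3.23 to -1.47). Several of these genes are low, such as Clk at 0.748 and 0.073 CPM. Called genes made up 40.3% to 42.2% of those tested on each of the arms 2L, 2R, 3L, 3R and X, and 34.2% on chromosome 4.

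The genes with large changes were set beside what control wings do between 24 h and 44 h, a contrast that shares no library with this one. In control 75.3% of all genes tested changed with time. Of the 109 genes that rose by at least 1 and had at least 5 CPM in the higher group, 77.1% rose and 19.3% fell with time in control, against 34.9% and 44.6% of all 7119 genes of that level. The median log2 change of the 109 with time in control was 3.60, against -0.09. Of the 90 genes that fell by at least 1 at that level, 35.6% rose and 54.4% fell with time. For the falls this direction depended on the level. Of all 278 genes that fell by at least 1, 50.4% rose and 31.7% fell with time. Of all 298 that rose by at least 1, 70.1% rose and 15.8% fell, against 37.1% and 38.1% of all genes tested. For single genes, Osi22 rose with time in control by a log2 of 10.68, Osi9 by 8.14, m by 8.49, Hr3 by 10.57, sha by 6.22 and e by 8.18. In these 6 genes E93RNAi+brRNAi replicate 2 was the highest library at 24 h. Genes of cell division fell with time in control, with log2 changes of -3.99 for feo and -6.71 for sti. Across all 9672 genes the Pearson correlation of the 2 contrasts was 0.17. This is a description across genes, which are not independent replicates, and whether the groups differed in exact age was not tested.

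**Figure D5:**
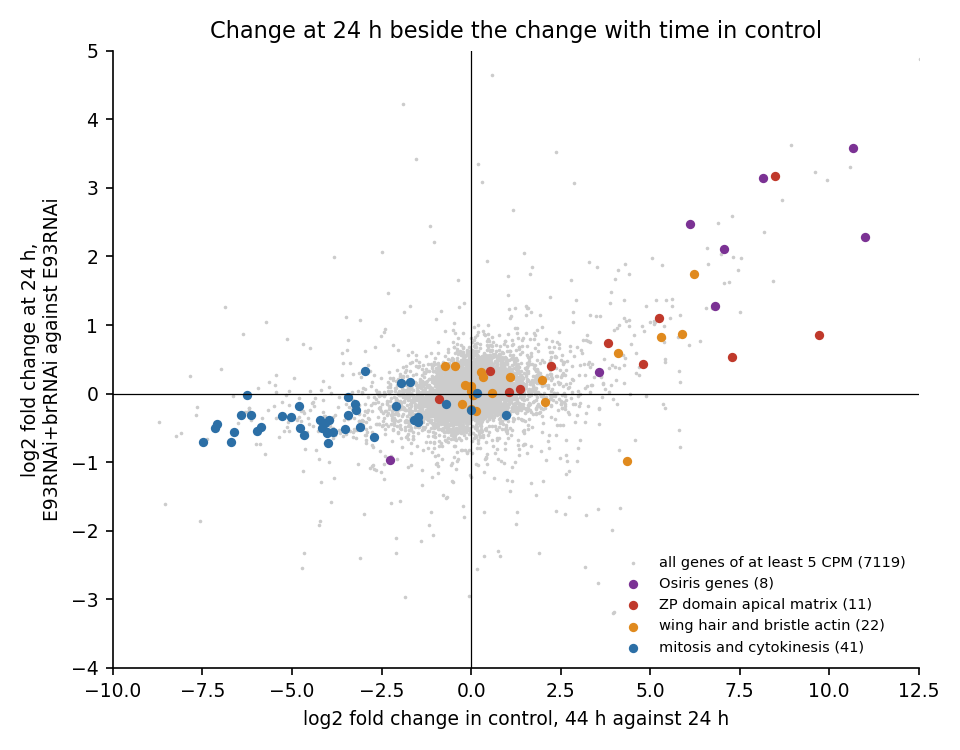
Each point is a gene with at least 5 CPM in E93RNAi or E93RNAi+brRNAi (7119 genes), with its log2 fold change in control from 24 h to 44 h on the x axis and its log2 fold change at 24 h, E93RNAi+brRNAi against E93RNAi, on the y axis; 6 genes lie outside the axes. Most Osiris genes and several ZP and hair genes lie to the upper right, Osi14 and most mitosis genes to the lower left, and jv to the lower right.

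The same pair of genotypes at 44 h, with other libraries, gave values for the same genes. At 44 h 48.8% of all genes tested changed by the same rule, 7.14% with a rise and 3.68% with a fall of at least 1. Of the 109 genes 77.98% rose and 11.01% fell at 44 h, against 24.3% and 26.7% of all genes of that level. Of the 90 that fell at 24 h, 53.3% fell and 33.3% rose at 44 h. The Pearson correlation across the 9672 genes was 0.28. For br the effect at 44 h was -2.72 (adjusted p = 1.05e-11 by edgeR), and for Dcr-2 -5.39, so the differences in br and in Dcr-2 were present at both times. Cpr100A, by contrast, fell at 24 h (log2 fold change -2.32) and rose at 44 h (2.83), and the test of that difference, which 33.5% of all genes passed, gave a call (edgeR adjusted p = 4.23e-13). Hr3 rose at 24 h and did not pass at 44 h (-0.31, adjusted p = 0.0811 by edgeR), and that difference passed too (adjusted p = 5.31e-10 by edgeR). These genes were set beside their 44 h effects after their values were seen.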

How the data were processed

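Poly(A) RNA of pupal wings was sequenced in 18 libraries, 3 for each of 6 groups of genotype and age. The authors deposited for each library a table of 14489 genes with a raw count and a cRPKM, an RPKM corrected for the length a read can map to; 758 genes had no value. Counts were used for all tests, and the deposited cRPKM only to set genes beside each other. The assembly is dm6, per the submitters' processing notes; which aligner and counter they used, and how strand was counted, is not given in the sources used here. Per the labels' protocols the kit keeps strand, but overlapping or antisense genes and paralogs may still share counts.

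Gene IDs were matched to Ensembl release 115 for names and positions (13511 matched, 220 did not). br is listed under a former ID, and the length that its counts and cRPKM imply is within 1 base of that of a br transcript. Library totals were 17627937 to 22940404 counts, and the common coefficient of biological variation was 5.99%. Precision is limited by 3 libraries a group. The labels number the replicates but do not say that they are separate cultures, so p-values measure the spread between these libraries. No pair of libraries agreed within sampling noise.

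edgeR 4.0.16 in R 4.3.3 fitted all 18 libraries with 1 mean per group (TMM scaling, filterByExpr, quasi-likelihood F test, Benjamini-Hochberg at 0.05 over 9672 genes), and limma 3.58.1 was loaded with it. The procedure was tested on simulated data. Alternatives were DESeq2 1.42.0, no filter, other scalings, fits of 6 or 9 libraries, a replicate block, leaving out each library and, chosen after seeing the data, removal of each library's trend with gene length. Same-numbered libraries of both groups did not deviate together, as given with the alternatives.

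Named genes follow a rule: br, Eip93F, rn and Dcr-2, the 8 largest rises and falls at 5 CPM or more, near-absent genes, runs of neighbours, and for each of 46 gene lists up to 4 called members by adjusted p, up to 4 more by size and up to 2 that did not pass. wb, Osi14, Osi2 and dpy, and the tests of Cpr100A, Hr3 and sens between times, were added after their values were seen. The members, gene lists and markers were chosen with earlier results of these data known, so their counts are descriptions and no list was tested.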

Additional observations from a re-analysis of the deposited data

Results flagged for a closer look

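The log2 fold change of E93RNAi+brRNAi against E93RNAi (the effect) at 44 h was tested against that at 24 h. These groups differ in both br and Dcr-2. The test covered br, Eip93F, rn, Dcr-2 and the genes with the largest changes at 24 h. It used the interaction term in edgeR with Benjamini-Hochberg adjustment, which 33.5% of all genes passed. The genes with the largest changes were chosen by their effects at 24 h, which the test uses again. A smaller effect at 44 h was thus favoured by the choice. Values below are the log2 effect at 44 h minus that at 24 h, with n = 3 libraries in each of the 4 groups. For br (-0.32), rn (-0.16), Dcr-2 (-0.09) and krimp (1.10) the difference did not pass.

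The 4 sarcomere genes among those with the largest falls at 24 h rose at 44 h. The difference was 7.31 for Mhc, 5.24 for Mlc1, 4.31 for Tm2 and 4.25 for up (largest adjusted p = 1.34e-09, for Tm2). At 44 h Mhc was at 22.2 ± 5.301 CPM in E93RNAi, 76.6 ± 11.9 CPM in E93RNAi+brRNAi and 58.3 ± 9.07 CPM in control (SD), so that E93RNAi was above control at 24 h and below it at 44 h. Gcat, a mitochondrial enzyme of threonine breakdown, took the same course, with a difference of 5.64. Pkc53E, a protein kinase C, fell at both times, less so at 44 h (1.41).

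Several of the largest rises were smaller at 44 h, a direction that their choice by size at 24 h favours. The difference was -1.79 for Cyp4p2 (adjusted p = 0.0383 by edgeR) and -2.37 for Cyp4p1, which still rose at 44 h by 7.52 and 6.30. It was -2.33 for Osi22, -2.43 for CG4702, -4.12 for C901 and -2.12 for Dro. For CG46025 (-5.11) and Cyp4g1 (-4.43) the effect at 44 h did not pass (0.71 and 0.21).

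Eip93F differed by -0.61 (adjusted p = 1.27e-05 by edgeR). It was slightly higher in E93RNAi+brRNAi than in E93RNAi at 24 h. At 44 h it was lower, at 1156 ± 37.7 CPM in E93RNAi and 867 ± 55.9 CPM in E93RNAi+brRNAi. Of the genes added after their values were seen, Cpr100A differed by 5.15, Hr3 by -3.61 and sens by 2.33. The effect for sens was -2.32 at 24 h and 0.00 at 44 h.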

How the results depend on the processing

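At 24 h the genes called numbered 3989, and under the alternatives 3096 to 4051, with 1515 to 2054 rises and 1581 to 2253 falls. Rises of at least 1 on the log2 scale numbered 255 to 311 and such falls 202 to 335. Leaving out 1 library gave 3096 to 3952 calls, 1515 to 1903 rises, 1581 to 2049 falls, and 261 to 302 and 247 to 286 of at least 1. Calls were fewest without E93RNAi+brRNAi replicate 3. At 44 h, falls of at least 1 numbered 356 and, with no filter, 557. Same-numbered libraries did not deviate together (correlations of -0.01, -0.21 and -0.31 over 7827 genes), and those of unlike number gave -0.15 to 0.27. Deviations from the mean of 3 libraries are tied to each other, so these values cannot exclude a pairing. A replicate block gave 3822 calls. Of 231 named genes called, 192 passed in all 14 alternatives and 39 lost the call in at least 1. With the length trend removed, 16 named genes changed sign with a call on either side: svr (0.15), ft (0.002), arm (0.088), Fas3 (0.11), LanB1 (0.13), shot (0.082), RpS13 (-0.007), RpL10Ab (-0.11), mRpS16 (-0.23), mRpS10 (-0.22), Prosbeta2 (-0.16), vvl (0.14), tra (-0.013), msn (0.13), Hsp26 (-0.12) and GstE13 (-0.16). The cause was not tested. Depth limits genes near 1 CPM, where 1 count is about 0.05 CPM. The median standard error of the log2 fold change was 0.087. Changes under 0.2 on the log2 scale are near the size of the length trend, whose bin medians ran from 0.25 to -0.19.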
